A study of Helianthus annuus with 2 samples.

Results

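In the list of H3K4me3 peaks labelled 28 DAA (days after anthesis), 3341 intervals lay more than 50 kb from any other interval of the same list, on the left and on the right. They were chosen by position alone, from the gaps between interval ends on the 17 chromosomes, and made up 2.73% of the 122415 intervals placed there and 2.71% of the 123464 intervals of the whole list. They are called isolated intervals here. The material was developing seed of the high-oleic sunflower line CAS-9, harvested at 13 DAA (early fatty acid biosynthesis) and 28 DAA (late fatty acid biosynthesis), with 1 ChIP-Seq library per stage and the same antibody against H3K4me3 for both. Reads of this line were mapped by the authors to the genome of another line, XRQ, and duplicates were removed before MACS2 called the peaks. The sources used here do not say whether seeds of several plants were pooled or whether an input control was sequenced. The paper's text and the deposited labels attach the peak numbers to opposite stages, so 13 DAA and 28 DAA stand throughout for the list that carries this label. On the 17 chromosomes, the list labelled 28 DAA had a median of 43 fragments at the summit and a median fold enrichment of 5.91, and the list labelled 13 DAA had 19 and 5.15.

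H3K4me3 is the trimethylation of lysine 4 on histone H3. In plants it is deposited by SET-domain methyltransferases and is found mainly at the 5′ ends of transcribed genes, where it accompanies active transcription. Large plant genomes such as that of sunflower carry long stretches of transposable elements between their genes, and silent elements usually lack this mark. A peak far from every other one is therefore of interest for its size, its place on the chromosome and its presence at the other stage. The gene models that go with the coordinates of these lists were not used here, so no gene is named for any interval and no sequence is shown.

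Because gaps in the 28 DAA list chose the intervals, all their values in that list are given as a description. With a single library per stage there is no replicate spread, and no test between stages or between groups of intervals was made. Shares are given with 95% Wilson intervals, which cover counting error only.

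The distance to the nearer neighbour had a median of 72445 bp among isolated intervals, with quartiles of 58864 and 101859 bp. The distance to the farther neighbour had a median of 136630 bp and reached 1006668 bp. More than 100 kb separated 876 isolated intervals (26.2%) from both neighbours, and more than 200 kb separated 112. For comparison, the nearer neighbour of all 122415 intervals lay at a median distance of 791 bp, and 53.5% of the intervals had one within 1 kb. The limit of 50 kb falls on the falling slope of this distribution and does not separate distinct groups. Just inside it were Chr15:148575975-148576183 (nearer neighbour at 50007 bp) and the mutual neighbours Chr17:187362662-187362831 and Chr17:187412840-187413125 (50008 bp apart). Just outside were Chr8:89909811-89910146 (49997 bp), Chr12:83152848-83153799 (49991 bp) and Chr5:14234254-14234414 (49981 bp). Both sets held weak and strong peaks. Those inside had fold enrichments of 3.44, 7.88 and 16.4, and those outside 6.06, 8.67 and 6.06.

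**Figure D1:**
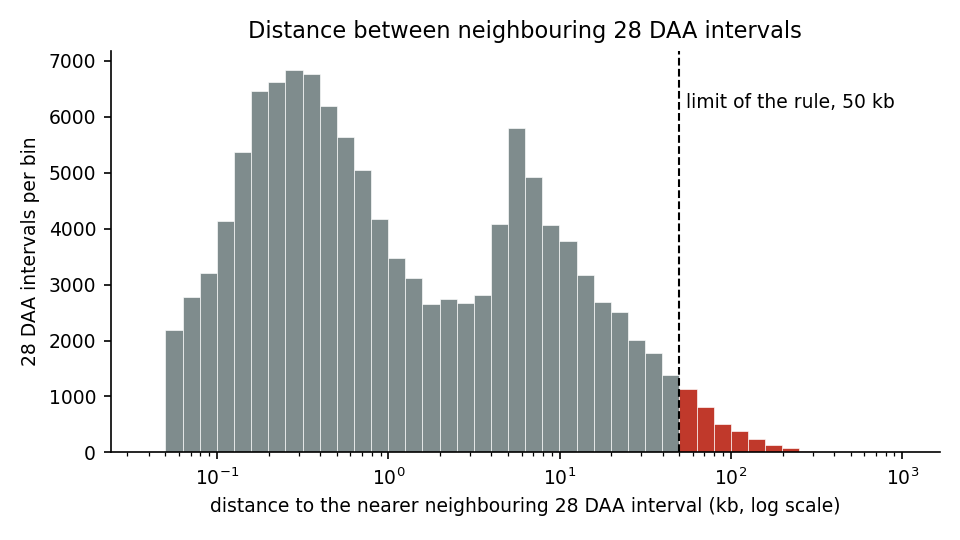
Distance in kb (log scale) from each 28 DAA interval on the 17 chromosomes to the nearer neighbouring interval of the same list, as intervals per bin. The dashed line marks 50 kb and the bars in red hold the 3341 isolated intervals, which form the right tail of the distribution.

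Most isolated intervals were narrow. Their median width was 235 bp (quartiles 179 and 390 bp, range 161 to 2149 bp), against 284 bp (203 and 454 bp) for the other 119074 intervals of the list on the 17 chromosomes. The shortest width in the list, 161 bp, was that of 355 isolated intervals (10.6%, 9.63 to 11.7%), whereas 4.56% of the others had it. Widths of up to 200 bp were found in 36.8% of the isolated and 24.0% of the other intervals. At the opposite end, 166 isolated intervals were wider than 1000 bp. This was 4.97% (4.28 to 5.76%) of them and 3.45% (3.34 to 3.55%) of the others. Isolated intervals thus held a larger share of the narrowest and of the widest intervals, and a smaller share of those from 301 to 500 bp (14.9% against 25.3%). The median was lower among isolated intervals on 17 of 17 chromosomes, and the surplus of intervals of up to 200 bp was also present on 17. The surplus above 1000 bp was seen on 13 of 17, the exceptions being chromosomes 12, 13, 15 and 17.

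The 3 widest isolated intervals had many fragments, and their fold enrichments were below the upper quartile of isolated intervals, 9.09. That of the widest was also below the lower quartile, 5.15. The widest, Chr10:222720948-222723096, measured 2149 bp. Its fold enrichment was 5.07, with 140 fragments at the summit (95% Poisson interval 118 to 165). Chr16:152062765-152064723 measured 1959 bp (7.13-fold, 171 fragments). Chr9:152163995-152165864 measured 1870 bp (6.22-fold, 169 fragments). At 13 DAA they were overlapped by 2, 2 and 3 shorter intervals, respectively.

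The number of fragments at a summit was solved from the fold enrichment, which MACS2 computes as the pileup over the local background with a pseudocount of 1 in both, and from the Poisson p-value. It was low for most isolated intervals. The median was 22 fragments (quartiles 17 and 39, range 12 to 218), against 44 (26 and 77) for the others. More than 50 fragments were found at 19.3% of the isolated summits (18.0 to 20.6%) and at 43.3% of the others. More than 100 fragments were found at 290 isolated summits, or 8.68% (7.77 to 9.68%), against 15.5%. The fragment numbers of isolated intervals peaked below 25 and then ran out in a flat tail, as the plot of widths and fragments shows. A call needs more fragments over a higher local background, and the background was higher at the other intervals, as given next. What part of the difference in fragments goes with this was not tested.

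The fold enrichment had another order. Its median was 6.36 for isolated intervals (quartiles 5.15 and 9.09) and 5.90 for the others (4.55 and 8.06), and it was higher among isolated intervals on 17 of 17 chromosomes, where the median fragment number was lower on 17 of 17. The local background, which is the divisor of the fold, had a median of 2.32 fragments at isolated and 6.54 at other summits. At 1660 isolated intervals (49.7%) it equalled, within 0.01 fragments, the genome-wide value of 2.30 fragments, the smallest that the list holds, whereas this applied to 11.2% of the others. Fold enrichments of isolated and other intervals were therefore taken over different backgrounds. The median local background fell with the distance to the nearer neighbour, from 9.13 fragments within 1 kb to 2.30 beyond 100 kb. The rule selects on this distance, so the background and the fold are not independent of it. The same holds for the fragment number and the width at which a peak is called. Within a class of equal fragment number, isolated intervals were the wider ones above 20 fragments. Those with 51 to 100 fragments had a median width of 574 bp and a median fold of 12.3, against 361 bp and 6.46 for the others of this class. With 16 to 20 fragments, the widths were 183 and 189 bp.

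In terms of q-value, 60.8% of the isolated and 76.5% of the other intervals were at 1e-10 or below. The largest q-value of an isolated interval was 0.000226. The 3 highest fold enrichments belonged to intervals of 316 to 377 bp, between the median and the upper quartile of width. Chr17:212917803-212918179 reached 27.8-fold with 102 fragments and a width of 377 bp. It lay 51009 bp from its nearer neighbour, and no 13 DAA interval overlapped it. Chr14:22404388-22404741 reached 27.1-fold with 167 fragments (143 to 194), and Chr13:63629160-63629475 reached 27.1-fold with 143 (121 to 168). Both of these had a counterpart at 13 DAA, of 244 and 179 bp, with 11.9-fold and 36 fragments (25.2 to 49.8) and with 9.56-fold and 32 fragments (21.9 to 45.2).

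The 3 isolated summits with most fragments lay under wider intervals. They were Chr10:144733249-144734051 (218 fragments, 190 to 249), Chr11:62279536-62280923 (214, 186 to 245) and Chr16:65529896-65531486 (207, 180 to 237). Their fold enrichments were 9.74, 8.23 and 6.90. The strongest overlapping 13 DAA intervals had 59, 48 and 62 fragments, with fold enrichments of 7.71, 7.99 and 6.75. At these loci the fragment number at 28 DAA was more than 3 times that at 13 DAA. They were chosen for their 28 DAA fragments, which favours such an excess, so the ratio is a description of these 3 loci.

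**Figure D2:**
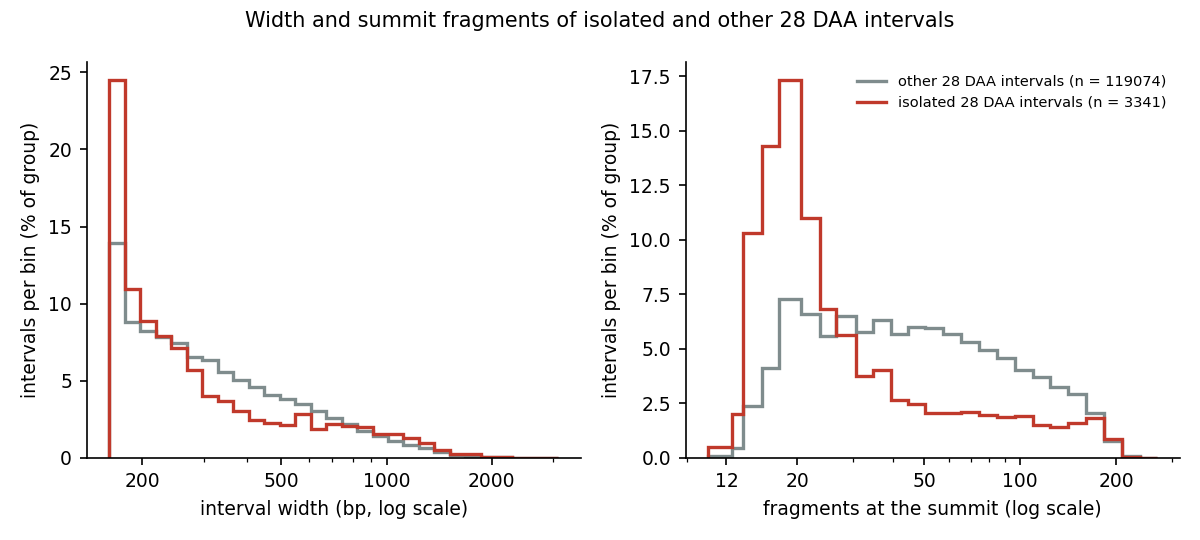
Left, width in bp, and right, fragments at the summit (both on log scales), of isolated (red) and other (grey) 28 DAA intervals, as a percentage of each group per bin. Isolated intervals pile up at the narrow end and at few fragments, with medians of 235 bp and 22 fragments against 284 bp and 44 fragments.

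The distance to the neighbour was also split into finer classes, to see whether the values changed at the limit of 50 kb. They did not change abruptly. The median number of fragments was 55 for intervals with a neighbour within 1 kb, 37 from 1 to 5 kb, 27 from 5 to 10 kb, 23 from 10 to 25 kb and 22 from 25 to 50 kb. It was 22 from 50 to 100 kb and 21 beyond 100 kb. The median width ran from 301 bp within 1 kb to 245 bp between 25 and 50 kb, 236 bp between 50 and 100 kb and 233 bp beyond. The share of intervals at the genome-wide background rose from 2.47% within 1 kb to 43.7% between 25 and 50 kb and to 52.2% beyond 100 kb. Intervals from 25 to 50 kb thus had nearly the values of the isolated ones.

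Isolated intervals were found on every chromosome, from 107 on chromosome 7 to 315 on chromosome 10. With the chromosome length approximated by the end of the last interval in either list, this corresponded to between 0.949 per Mb on chromosome 1 and 1.28 per Mb on chromosome 10, with a median of 1.11. Among the 28 DAA intervals of a chromosome, the isolated share was lowest on chromosome 15 (2.17%, 1.87 to 2.52%) and highest on chromosome 2 (3.85%, 3.39 to 4.37%), followed by chromosome 10 with 3.55%. Chromosome 2 was also the one with the lowest density of 28 DAA intervals, 32.9 per Mb, and the isolated share depends on this density by construction. The median width per chromosome ranged from 214 to 254 bp, and the median fold enrichment from 6.06 to 6.87.

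Along the chromosomes, isolated intervals were more frequent in the middle. Each chromosome was divided into 10 equal sections, numbered from its start. The isolated share of the 28 DAA intervals was 1.90% (1.69 to 2.14%) in the first section, 4.24% (3.86 to 4.65%) in section 6 and 1.36% (1.19 to 1.54%) in the last. In number, this was 276, 422 and 234 intervals. The outer 10% at each end together held 510 isolated intervals, or 15.3% (14.1 to 16.5%), and 26.3% of the other intervals. The share was lower among isolated intervals on 17 of 17 chromosomes. The central 20% held 24.2% of the isolated and 16.0% of the other intervals. This pattern is the reverse of the density of the list as a whole. That density fell from 48.4 intervals per Mb in the first section to 32.8 in section 5 and rose to 57.6 in the last. The rule makes isolation more likely where 28 DAA intervals are sparse, so the pattern depends on this density by construction. Widths did not share the pattern, since the median was between 226 and 250 bp in every section, and the share overlapped at 13 DAA was between 29.4% (section 8) and 40.2% (section 7).

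The 13 DAA list, which the selection did not use, varied less along the chromosomes, between 50.7 intervals per Mb in section 3 and 62.3 in the last. Within 500 kb on either side, isolated intervals had a median of 28 other 28 DAA intervals, against 48 for the others. The rule itself lowers this number. Of the 13 DAA list, a median of 49 intervals lay within this distance of isolated intervals, against 59 for the others. Centromere positions were not used here.

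**Figure D3:**
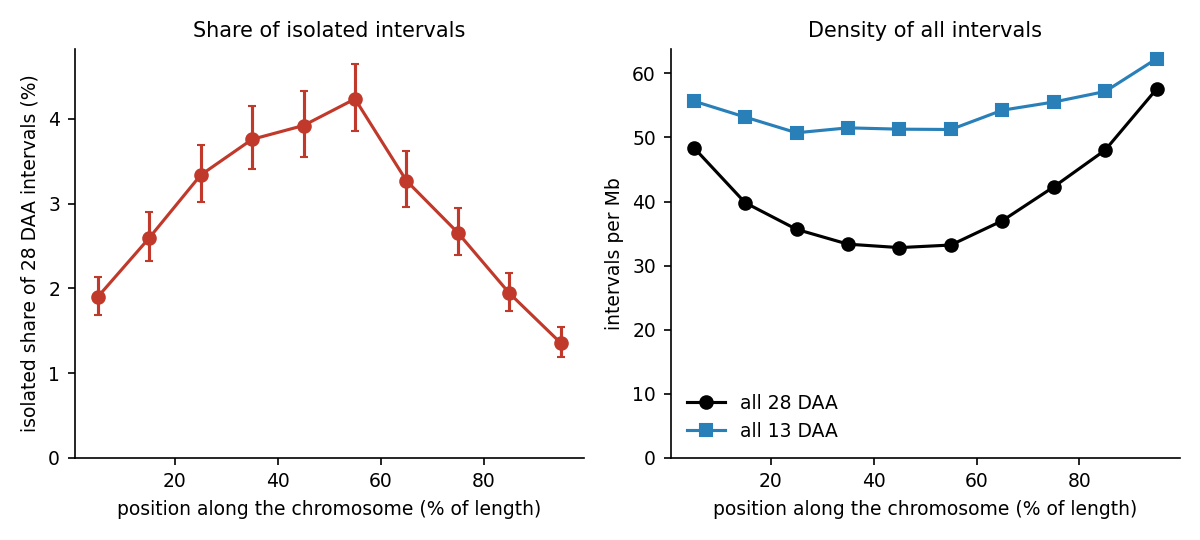
Left, isolated intervals as a percentage of the 28 DAA intervals in each of 10 equal sections of the chromosome length, over the 17 chromosomes, with 95% Wilson intervals. Right, density of all 28 DAA and all 13 DAA intervals per Mb in the same sections. The isolated share peaks at 4.24% in section 6, where the 28 DAA density is near its minimum.

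Some isolated intervals were next to one another. Such neighbours share a gap of more than 50 kb, so the rule itself favours runs. No expected number of runs was computed. Of the 3341, 1977 stood alone between intervals with a closer neighbour, and 1364 formed runs of consecutive isolated intervals. There were 427 runs of 2, 110 of 3, 26 of 4, 9 of 5, 4 of 6 and 1 of 7 intervals. The longest run lay at Chr10:127915439-128881237, where 7 intervals of 161 to 459 bp were spread over 966 kb. A single one of them was overlapped at 13 DAA, although 26 intervals of the 13 DAA list fell in the same stretch. At Chr3:94198019-95318565, 6 isolated intervals spanned 1121 kb, 5 of them were overlapped, and the stretch held 48 intervals of the 13 DAA list. At Chr12:136598585-137702731, 6 isolated intervals of 164 to 281 bp spanned 1104 kb, with 2 overlapped and 26 intervals of the 13 DAA list. The other runs of 6 were Chr13:20180939-21035145, with 1 interval overlapped and 29 intervals of the 13 DAA list, and Chr14:38676744-39505820, with 2 and 43. These stretches were thus sparse in the 28 DAA list. They were not empty in the 13 DAA list, but the density of each was below the 13 DAA chromosome mean of 54.3 per Mb.

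The most remote isolated interval was Chr17:124506310-124506543, with gaps of 566 kb on the left and 788 kb on the right. It had 16 fragments and a fold enrichment of 4.84, and 4 intervals of the 13 DAA list lay within 50 kb of it, the closest at 13.9 kb. The next was Chr17:118363360-118363529 (gaps of 486 and 567 kb, 17 fragments, 5.45-fold), with a 13 DAA interval 1.07 kb away. The third, Chr9:77486311-77486581, had gaps of 1007 and 467 kb, 34 fragments (23.5 to 47.5) and a fold enrichment of 10.6. No 13 DAA interval was found within 50 kb of it, and the closest lay at 62.4 kb. The 2 most remote of all were therefore weak peaks. The third was above the upper quartile of fold among isolated intervals, 9.09. Its fragment number was between their median of 22 and upper quartile of 39.

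On each chromosome, the interval farthest from its nearer neighbour was separated by 231 kb (chromosome 1) to 566 kb (chromosome 17), with a median of 339 kb. Of these 17 intervals, 10 had at most 22 fragments and 7 were overlapped at 13 DAA. The strongest of them were Chr14:25296109-25296732 (115 fragments, 18.4-fold), Chr1:68547897-68548924 (103 fragments, 7.67-fold) and Chr3:94462328-94462920 (86 fragments, 12.6-fold). The one on chromosome 14 had an overlapping 13 DAA interval with 18 fragments and the one on chromosome 3 had one with 15 fragments. The one on chromosome 1 had none, and its closest 13 DAA interval lay 17.6 kb away. The others ranged down to 15 fragments, at Chr10:74110296-74110456, where the overlapping 13 DAA interval had 23. A remote position thus went with weak and strong peaks alike.

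The question whether isolated peaks recur at the other stage can be put to the 13 DAA list, which held 162824 intervals on the 17 chromosomes. A 13 DAA interval overlapped 1218 isolated intervals by at least 1 bp, or 36.5% (34.8 to 38.1%). Over all 28 DAA intervals on the chromosomes this share was 33.6%, so that of the isolated intervals was close to the background. It was above that of the other intervals on 15 of 17 chromosomes, the exceptions being chromosomes 1 and 2, and ranged from 31.4% on chromosome 2 to 41.7% on chromosome 6. When 50% of each interval had to be shared, the values were 21.5% for isolated and 18.3% for all 28 DAA intervals. With only 13 DAA intervals of a q-value of at most 1e-10, the shares fell to 16.3% and 17.3%, and their order turned.

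Within larger distances the order changed. A 13 DAA interval lay within 1 kb of 41.7% (40.03 to 43.4%) of the isolated intervals, against 48.5% of all 28 DAA intervals. Within 10 kb the shares were 70.0% (68.5 to 71.6%) and 83.9%, and within 50 kb 96.5% (95.8 to 97.1%) and 99.4%. The share within 10 kb was lower among isolated than among other intervals on 17 of 17 chromosomes. Isolated intervals were thus overlapped about as often, but had fewer further 13 DAA intervals beside them. The rule itself lowers this number, since it leaves no other 28 DAA interval within 50 kb for a 13 DAA interval to overlap. Of all 13 DAA intervals, 27.1% overlapped a 28 DAA interval.

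The overlap differed between sizes of peak. Of the isolated intervals wider than 1000 bp, 133 of 166 were overlapped, or 80.1% (73.4 to 85.5%), close to the 82.3% of other intervals of this width. From 501 to 1000 bp the shares were 48.3% (43.9 to 52.8%) and 57.1%, and from 301 to 500 bp 36.7% and 37.0%. Among narrow intervals the order was the opposite. Of the isolated intervals of up to 200 bp, 27.7% (25.3 to 30.3%) were overlapped, against 18.6% (18.1 to 19.03%) of the others, and from 201 to 300 bp 34.1% (31.1 to 37.1%) against 22.9%.

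By fragments, the overlap was highest above 100 fragments, with 242 of 290 isolated intervals or 83.4% (78.7 to 87.3%), against 74.8% of the others. It was lowest at intermediate numbers, with 26.5% of the isolated intervals from 21 to 30 fragments and 27.5% from 31 to 50, against 24.6% and 20.997% of the others. From 16 to 20 fragments the shares were 34.8% and 30.9%, and from 51 to 100 fragments 36.7% and 28.1%. In the weakest class, of up to 15 fragments, 35.7% (31.4 to 40.4%) of the isolated and 35.2% of the other intervals were overlapped. The isolated share was thus the higher one in every fragment class, though by little in the weakest. The weakest peaks were therefore not those with the least overlap, in either group.

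**Figure D4:**
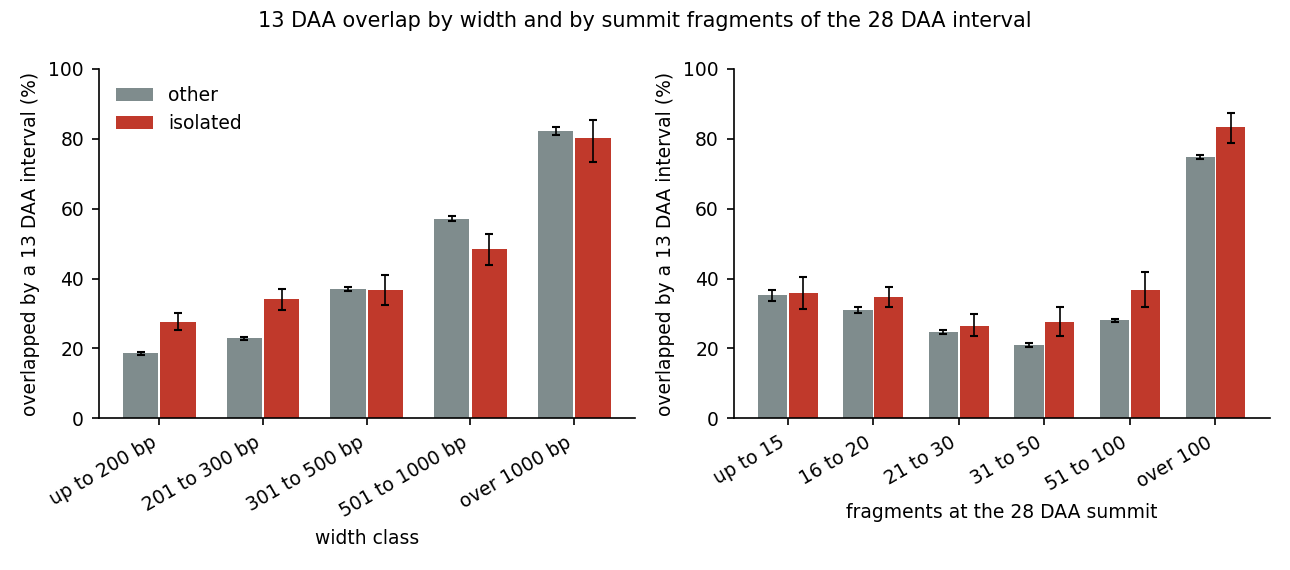
Share of 28 DAA intervals overlapped by a 13 DAA interval, for isolated (red) and other (grey) intervals, by width class (left) and by number of fragments at the 28 DAA summit (right). Bars start at 0 and whiskers are 95% Wilson intervals. The share reaches 80.1% above 1000 bp and 83.4% above 100 fragments among isolated intervals.

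Overlapped and non-overlapped isolated intervals differed mostly in their upper range. Those overlapped had a median width of 272.5 bp and an upper quartile of 608 bp, and 23 fragments with an upper quartile of 80.75. Those without overlap had 219 bp and an upper quartile of 325.5 bp, and 21 fragments with an upper quartile of 33. The median distance to the nearer 28 DAA neighbour was 73558.5 and 72045 bp, respectively.

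Of the 1218 overlapped isolated intervals, 1136 (93.3%) met a single 13 DAA interval, 71 met 2, and 11 met 3 to 5. The largest number, 5, was found at the interval Chr16:59373101-59374908, which is 1808 bp wide and was picked out after its values were seen. No 13 DAA interval overlapped more than 1 isolated interval. In the 1136 single pairs, the median width was 259 bp at 28 DAA and 230 bp at 13 DAA. The 28 DAA interval was the wider one in 65.5% (62.7 to 68.2%). The shortest interval was 161 bp in the 28 DAA list and 134 bp in the 13 DAA list. Widths of the 2 lists therefore start from different floors and are not directly comparable, here and in the pairs below. The median fold enrichment was 6.36 at 28 DAA and 5.68 at 13 DAA, and the 28 DAA value was the higher one in 68.2% (65.5 to 70.9%). The median fragment number was 22 in both lists, and 28 DAA had more fragments in 53.5% (50.6 to 56.4%). Among the 36264 single pairs formed by other 28 DAA intervals, 28 DAA was wider in 81.2% and had more fragments in 82.3%, with medians of 61 and 22 fragments. The summits lay a median of 46 bp apart in the pairs of isolated intervals and 39 bp in the others.

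The pairs were also divided by the 28 DAA fragment number. This division fixes in part which list has more fragments and the wider interval, so the values are a description of each set. In 305 pairs the 28 DAA summit had more than 50 fragments, and there the median was 113 fragments and 775 bp at 28 DAA against 23 fragments and 283 bp at 13 DAA. In 298 of them the 13 DAA interval lay wholly inside the 28 DAA interval. In the other 831 pairs the medians were 19 fragments and 218 bp at 28 DAA and 21 fragments and 218 bp at 13 DAA, and the 28 DAA interval was the wider one in 53.2% (49.8 to 56.6%) and had more fragments in 36.6% (33.4 to 39.9%). Across all 1136 pairs, Spearman's rho was 0.16 between the fragment numbers and 0.48 between the fold enrichments, against 0.35 and 0.42 in the 36264 pairs of other intervals. Between fragment numbers it was 0.60 in the 305 strong and 0.04 in the 831 weak pairs, and between fold enrichments 0.21 and 0.43. These coefficients describe pairs of the same 2 libraries, which are not independent replicates, and splitting pairs by their 28 DAA value narrows its range.

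Scaled to the genome-wide background of each list, 28 DAA was the higher one in 50.6% (47.7 to 53.5%) of the 1136 pairs. Most 13 DAA fragments at an isolated locus were counted at Chr9:141194819-141195711, a 13 DAA interval with 122 fragments (101 to 146) and 10.97-fold. The 28 DAA interval, Chr9:141194829-141195719, had 82 fragments (65.2 to 102) and 12.8-fold, and the ends of both intervals differed by at most 10 bp. The 13 DAA interval Chr11:57899133-57900026 had 70 fragments (54.6 to 88.4) and 12.2-fold, and its 28 DAA counterpart Chr11:57899170-57899941 had 47 (34.5 to 62.5) and 9.68-fold. At Chr10:184456511-184457521 the order by fragments was the opposite, with 80 at 13 DAA and 174 at 28 DAA, while the fold was 14.9 and 10.5.

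The surroundings of isolated intervals were not empty at 13 DAA. Within 50 kb on either side, and without those that overlapped, 36.5 intervals per Mb of the 13 DAA list were found, against 69.3 per Mb beside other 28 DAA intervals and 54.3 per Mb on the chromosomes as a whole. By construction no 28 DAA interval lies in this space, so that 13 DAA intervals found there have no 28 DAA counterpart. Over the whole chromosomes, such 13 DAA intervals without a 28 DAA overlap numbered 39.6 per Mb. For 13 DAA intervals without a 28 DAA overlap, the density was therefore 36.5 beside isolated intervals against 39.6 per Mb on the chromosomes. The first value counts an interval beside several isolated intervals once for each, 12204 in all from 11838 distinct ones. With a q-value of at most 1e-10 required of the 13 DAA intervals, 5.03 per Mb were left beside isolated intervals. The matching density over the chromosomes was not computed. For 13 DAA intervals without a 28 DAA overlap, the upper quartile of −log10 q was 9.04, below the 10 required here. In that setting 46.8% of the isolated and 82.4% of all 28 DAA intervals had a 13 DAA interval within 50 kb, overlapping ones included. An isolated interval had a median of 4 intervals of the 13 DAA list within 50 kb, overlapping ones included (quartiles 2 and 5, maximum 12), against 7 for other 28 DAA intervals.

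By distance from the isolated summit, 13 DAA summits were most frequent within 250 bp, at 702 per Mb (662 to 743 by counting error). Between 250 and 500 bp they fell to 127 per Mb, between 0.5 and 1 kb to 66.7, and between 1 and 2 kb to 37.9. From 10 to 50 kb the density was even, between 35.4 and 36.2 per Mb. Beyond 50 kb, where other 28 DAA intervals begin, it was 44.7 per Mb up to 60 kb and 49.5 per Mb from 100 to 200 kb. Around other 28 DAA intervals it was 635 per Mb within 250 bp, 169 between 0.5 and 1 kb and 59.98 from 100 to 200 kb. At the summit itself, the density was thus slightly higher at isolated intervals, and from 250 bp to 200 kb it was lower. Up to 50 kb the rule itself lowers it, since no other 28 DAA interval is left there for a 13 DAA interval to overlap.

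**Figure D5:**
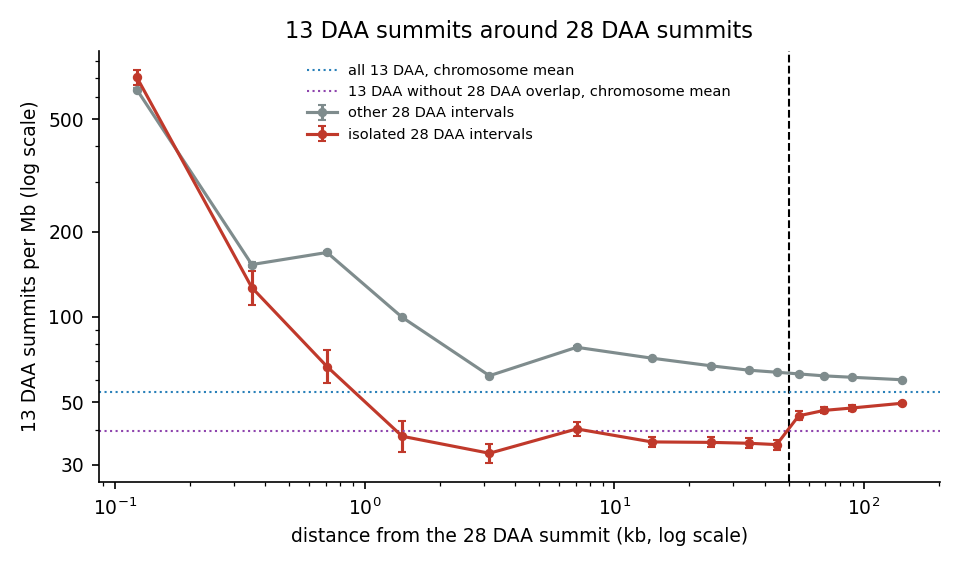
Density of 13 DAA summits (per Mb, log scale) by distance from the 28 DAA summit (kb, log scale), for isolated (red) and other (grey) 28 DAA intervals, with 95% Poisson intervals. Dotted lines give the chromosome means of 54.3 per Mb for all 13 DAA intervals and 39.6 per Mb for those without a 28 DAA overlap, and the dashed line marks 50 kb. Around isolated intervals the density levels off at 35.4 to 36.2 per Mb from 10 to 50 kb.

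In all, 11838 distinct 13 DAA intervals lay within 50 kb of an isolated interval without overlapping it, or 7.27% of the list on the chromosomes. They were weak, with a median of 18 fragments, 175 bp and a fold enrichment of 4.88, and at most 53 fragments. The 118725 intervals of the 13 DAA list without 28 DAA overlap anywhere on the chromosomes had nearly the same medians, 18 fragments, 177 bp and 4.91. The 1315 that overlapped an isolated interval had 22 fragments, 230 bp and 5.65, against 23 fragments, 229 bp and 5.81 for the 44099 that overlapped any 28 DAA interval. The 13 DAA intervals at and beside isolated intervals therefore differed little from their counterparts elsewhere.

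The most 13 DAA intervals within 50 kb, 12, were found at 6 isolated intervals. The first of them by position are Chr4:13229880-13230068, Chr5:136883391-136883615 and Chr8:69323128-69324010. Of the 6, 2 were overlapped at 13 DAA, among them Chr16:105492088-105493852 (1765 bp, 186 fragments) by 4 intervals. None of the first 3 was overlapped, and the closest 13 DAA interval lay 3.95, 0.144 and 2.14 kb away. Their summits had 17, 24 and 81 fragments.

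At the other end, 117 isolated intervals (3.502%, 2.93 to 4.18%) had no 13 DAA interval within 50 kb, against 0.474% of other 28 DAA intervals. The rule favours such a lack, since it leaves no other 28 DAA interval within this distance. The medians of the 117 were 229 bp, 24 fragments and 7.27-fold, against 235 bp, 22 fragments and 6.36-fold over all isolated intervals. They included Chr9:77486311-77486581, the third most remote interval, and Chr17:187362662-187362831, just inside the limit.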

How the data were processed

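The data were 2 lists of H3K4me3 peaks, 1 library per stage, grouped by the stage in the labels. Before deposit, the authors used FASTX-Toolkit for quality filtering, BWA-MEM for mapping to XRQ, Picard against duplicates and MACS2 for peaks. The deposited score is 10 times the −log10 q-value, rounded down. The fold enrichment is a ratio deposited by the authors, as are the −log10 p-value and −log10 q-value. No input control is given in the sources used here.

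Positions are given from 1. Gaps between interval ends, overlaps (minimum 1 bp) and positions relative to the chromosome end were computed from the lists. Fragments were solved from fold and p-value with a pseudocount of 1 (tolerance of 0.001 on −log10 p), which gave whole numbers for 100% of the intervals. Depth is known only through the genome-wide background, 143 (28 DAA) and 157 (13 DAA) fragments per 10 kb, which limits a single summit to the precision of its Poisson interval. Scripts were tested on simulated lists. The computations ran in Python 3.11.15 with pandas 2.3.3 and numpy 2.4.6, the intervals with scipy 1.17.1 and the plots with matplotlib 3.10.9.

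Named intervals are the 3 widest, highest in fold, richest in fragments, most remote, just inside and outside the limit, with most 13 DAA intervals within 50 kb and with most 13 DAA fragments, the most remote per chromosome, and the 3 longest runs, with ties by chromosome and start. The intervals, this rule and the alternatives (limits of 25 and 100 kb, a q-value of at most 1e-10, other overlap rules) were chosen with earlier results of these data known. Intervals on unplaced and organelle sequences were left out. The reference gene table at hand is of a later assembly and was not used.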

Additional observations from a re-analysis of the deposited data

How the results depend on the processing

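With only 28 DAA intervals of a q-value of at most 1e-10, the rule was applied anew to those left. The isolated intervals then numbered 3830, among them the 2030 of the 3341 that meet this q-value. The rest of the 3830 had a weaker neighbour within 50 kb in the full list. The median width, fold and fragments of the 3830 were 326 bp, 8.17 and 33, against 332 bp, 6.75 and 55 for all 28 DAA intervals in this setting. The 13 DAA density beside the 3830 was 41.0 per Mb, and 16.6% of them lay in the outer 10% at each end. Their overlap, 35.98%, stayed close to the background of 34.6% in this setting. A limit of 25 kb gave 8539 intervals with a median width of 241 bp, 97.9% with a 13 DAA interval within 50 kb, 45.5 per Mb beside them and 18.5% in the outer parts. A limit of 100 kb gave 876 intervals, an overlap of 39.6% (33.6% over all 28 DAA intervals) and 33.1 per Mb. With only 13 DAA intervals of a q-value of at most 1e-10, the overlap was 16.3% against 17.3% of all 28 DAA intervals, so the order of both turned. In that setting 46.8% had a 13 DAA interval within 50 kb, overlapping ones included, against 82.4% of all 28 DAA intervals. Beside isolated intervals 5.03 per Mb were left, and the matching density over the chromosomes was not computed. Stricter or looser rules for the overlap gave 21.5% (50% of both intervals), 32.1% (13 DAA summit inside) and 41.7% (gap of at most 1 kb). Over all 28 DAA intervals these shares were 18.3%, 31.4% and 48.5%, respectively. Within 10 kb 70.0% had a 13 DAA interval, and the outer 5% at each end held 6.94%. A required neighbour on both sides, which removed 3 intervals, moved none of the 8 results. No paired analysis was possible because each stage had a single library. Another pseudocount was not run, and that of 1 gave whole fragment numbers for 100% of the intervals. A weak peak rests on few fragments, 12 at the least, so a locus without a 13 DAA interval is one where none was detectable at this depth.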

Other observations

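The same rule applied to the 13 DAA list gave 1531 isolated intervals, or 0.940% of those on the chromosomes. Their nearer neighbour lay at a median of 59787 bp and at most 173877 bp, against 566111 bp at 28 DAA. They were weak, with a median of 18 fragments, 173 bp and 5.04-fold, and at most 65 fragments. A 28 DAA interval overlapped 158 of them (10.3%, 8.89 to 11.9%), against 27.1% of all 13 DAA intervals. At 35 loci the interval was isolated in both lists. This is 2.29% of the isolated 13 DAA intervals, whereas 0.808% of all 13 DAA intervals overlapped an isolated 28 DAA interval. It is also 1.05% of the isolated 28 DAA intervals, for which the share over all 28 DAA intervals was not computed.

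Of the 290 isolated 28 DAA intervals with more than 100 fragments, 48 had no overlapping 13 DAA interval, or 16.6%, against 25.04% of all 18747 intervals of the list with more than 100 fragments. None lay within 10 kb of 18 of them (6.21%, against 3.19%) and none within 50 kb of 1 (0.345%, against 0.0533%). The following intervals were chosen after their values were seen. That last one was Chr2:72605638-72606516 (879 bp), with 105 fragments (85.9 to 127), a fold enrichment of 8.97 and gaps of 76.6 and 453 kb. Without a 13 DAA overlap, most fragments were counted at Chr17:163770982-163771731 (148, 10.5-fold), Chr8:4636490-4637167 (142, 14.01-fold) and Chr13:117798031-117798449 (140, 13.9-fold). Their closest 13 DAA intervals lay 12.9, 2.53 and 20.9 kb away.

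Among isolated intervals, 3 were the first or last of their chromosome and so had a neighbour on one side only. They were Chr2:217012-217395, Chr6:103884062-103884489 and Chr15:101139-102038, with 21, 21 and 124 fragments, and each was overlapped by a 13 DAA interval.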
